A study of Mus musculus with 18 samples.

Results

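The genes described here are 10 members of the Notch pathway, Notch1, Notch2, Notch3, Jag1, Jag2, Lfng, Hes1, Hey1, Hey2 and Heyl, chosen by symbol from the 55536 genes of the deposited count table. RNA was sequenced from 3 immortalised lines of mouse embryonic fibroblasts (MEFs), connective tissue cells grown from embryos: a wild-type line (WT), a p65 KO line (knock-out of p65, the product of Rela and a subunit of the transcription factor NF-κB) and an IKK2 KO line (knock-out of IKK2, the product of Ikbkb and a kinase upstream of NF-κB). Cells of all 3 lines received either no TNF or 10 ng/ml of TNF alpha (TNF), an inflammatory cytokine, for 45 or 90 min, which gave 9 groups of 2 libraries (called a and b). Each genotype was a single line, so genotype and line cannot be told apart, and how the lines were immortalised is not given in the sources used here. The labels do not say whether the 2 libraries of a group came from separate cultures, so the p-values refer to the spread among these libraries alone, and that spread may be technical.

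Notch receptors sit in the cell membrane and bind Jagged or Delta ligands on neighbouring cells. Binding leads to cleavage of the receptor by ADAM proteases and γ-secretase, and the freed intracellular domain enters the nucleus, where it joins the DNA-binding protein RBPJ and a Mastermind co-activator and turns on genes of the Hes and Hey repressor families. Fringe enzymes such as the Lfng product add sugars to the receptor and change which ligands it answers to, and in the embryo's segmentation clock the unstable RNAs of Hes1 and Lfng rise and fall in cycles.

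Promoter sequences were available for 7 of the 10 members in RefSeq (GRCm38.p6). Hes1, Hey1 and Heyl were not among them. The 250 bases before the RefSeq start site are shown for 4 members: Lfng and Jag1, which fell together after TNF in the WT and IKK2 KO lines, Hey2, which was detected mainly in p65 KO, and Notch2, the most abundant receptor. Capitals mark the RBPJ core TGGGAA on either strand or the κB consensus, the 10-base motif bound by NF-κB. The end of the RBPJ core can overlap the start of a κB motif, but no such overlap occurred in these 7 promoters. The Lfng window was chr5:140607091-140607340 (plus strand), the Jag1 window chr2:137116521-137116770 (minus), the Hey2 window chr10:30842784-30843033 (minus) and the Notch2 window chr3:98013288-98013537 (plus), each read 5′ to 3′ along the gene. The RefSeq starts differ from the GENCODE gene positions given below. Each of these 4 windows thus reaches into the gene's GENCODE span, that of Jag1 furthest, where the span ends at 137116644.
Lfng: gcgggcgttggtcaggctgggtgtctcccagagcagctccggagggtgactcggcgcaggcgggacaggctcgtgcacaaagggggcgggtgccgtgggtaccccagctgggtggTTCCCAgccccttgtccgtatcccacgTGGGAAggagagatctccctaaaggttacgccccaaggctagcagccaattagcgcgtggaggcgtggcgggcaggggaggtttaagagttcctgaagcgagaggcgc
Jag1: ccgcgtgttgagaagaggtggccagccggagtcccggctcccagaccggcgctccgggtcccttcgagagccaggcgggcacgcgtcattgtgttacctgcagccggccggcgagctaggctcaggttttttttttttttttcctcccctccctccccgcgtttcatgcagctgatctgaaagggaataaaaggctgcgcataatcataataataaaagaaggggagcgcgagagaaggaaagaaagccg
Hey2: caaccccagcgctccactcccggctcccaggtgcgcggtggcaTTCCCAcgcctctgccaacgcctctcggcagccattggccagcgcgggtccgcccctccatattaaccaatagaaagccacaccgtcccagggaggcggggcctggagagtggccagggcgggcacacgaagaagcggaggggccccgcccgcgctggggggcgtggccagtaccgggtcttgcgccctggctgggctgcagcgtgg
Notch2: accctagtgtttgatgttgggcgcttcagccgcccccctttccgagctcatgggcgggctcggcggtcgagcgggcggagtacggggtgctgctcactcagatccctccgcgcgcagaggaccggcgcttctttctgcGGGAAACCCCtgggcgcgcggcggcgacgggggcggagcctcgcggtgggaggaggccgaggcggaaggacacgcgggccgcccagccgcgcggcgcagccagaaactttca
The Lfng window held 2 RBPJ cores, 1 on each strand, and the Hey2 window held 1. Thus 2 of 7 members had the core, against 21.6% of 32851 promoter windows of the same length. The κB consensus was found in 1 of 7 members, Notch2, where it reads as a κB motif on both strands, against 7.25% of all windows. The N-box CACNAG, a site of Hes repressors, was in 4 of 7 (36.7% of all windows) and the TATA box TATAAA in 0 of 7 (12.4% of all windows). These matches are a description of letters in the window.

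Library totals ran from 16708346 to 23469439 counts. Rela, the gene targeted in p65 KO, stood at 64.4 and 63.2 CPM (counts scaled to library size with TMM factors) in untreated WT and at 6.11 and 5.25 CPM in untreated p65 KO. Whole-gene counts of Ikbkb could not serve as such a check for IKK2 KO. The untreated level there was 43.4 ± 0.371 CPM, beside 42.7 ± 0.0141 CPM in p65 KO and 59.9 ± 0.76 CPM in WT (mean ± SD, n = 2). Of 8 fibroblast markers, 7 exceeded 1 CPM in WT, 7 in p65 KO and 8 in IKK2 KO. Among these Thy1 was near 0 in WT and p65 KO (0.00825 and 0.00692 CPM, means over 6 libraries) and 27.7 CPM in IKK2 KO. The summed fibroblast markers ran from 10800 to 11100 CPM in WT, 4550 to 4700 in p65 KO and 10700 to 11100 in IKK2 KO. Endothelial markers summed to at most 1.21 CPM in any library, epithelial markers to 3.23, myeloid markers to 2.23 and skeletal muscle markers to 2.46, with Myod1, Myog, Myf5 and Pax7 at 0 counts. Of 7 mural cell markers only Cspg4 stood out, at 350 CPM in WT, 0.264 in p65 KO and 2.23 in IKK2 KO. Neural markers summed to 404 to 492 CPM in WT, 50.9 to 55.9 in p65 KO and 317 to 340 in IKK2 KO. These sums came mostly from Nes in WT and IKK2 KO, and mostly from Map2 in p65 KO (36.2 CPM, with Nes at 11.7).

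Jag1, Lfng and Hes1 were lower after 45 min of TNF in WT and IKK2 KO fibroblasts and had risen again by 90 min. In WT at 45 min, Notch1, Jag1, Lfng, Hes1 and Hey1 fell, 5 of the 8 members that passed the filter on low counts, and 0 rose. Among all 16322 genes tested, 12.2% were called in that comparison (edgeR quasi-likelihood test, Benjamini-Hochberg adjusted p under 0.05), 6.45% as lower. The Hey1 call (adjusted p = 0.046) was lost in 7 of 9 alternatives, DESeq2's Wald test among them. The members were chosen with earlier results of these data known, so their counts are a description. In IKK2 KO at 45 min, Jag1, Lfng and Hes1 fell and Notch2 rose slightly (4 of 8, against 8.76% of all genes). In p65 KO at 45 min 0 of 8 members were called, where 1.66% of all genes were. Without a filter on low counts or with DESeq2's Wald test the p65 KO count was also 0, and 2 members, Notch3 and Hey1, had an unadjusted p under 0.05 in edgeR's test. The counts out of 8, here and at 90 min, include genes nearly absent from a line. Notch1 had 7 to 11 counts per library in p65 KO, Hey2 0 or 1 in WT, and Hey1 and Hey2 0 to 2 in IKK2 KO. Where such a gene was not called, that does not show that it did not respond.

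**Figure D1:**
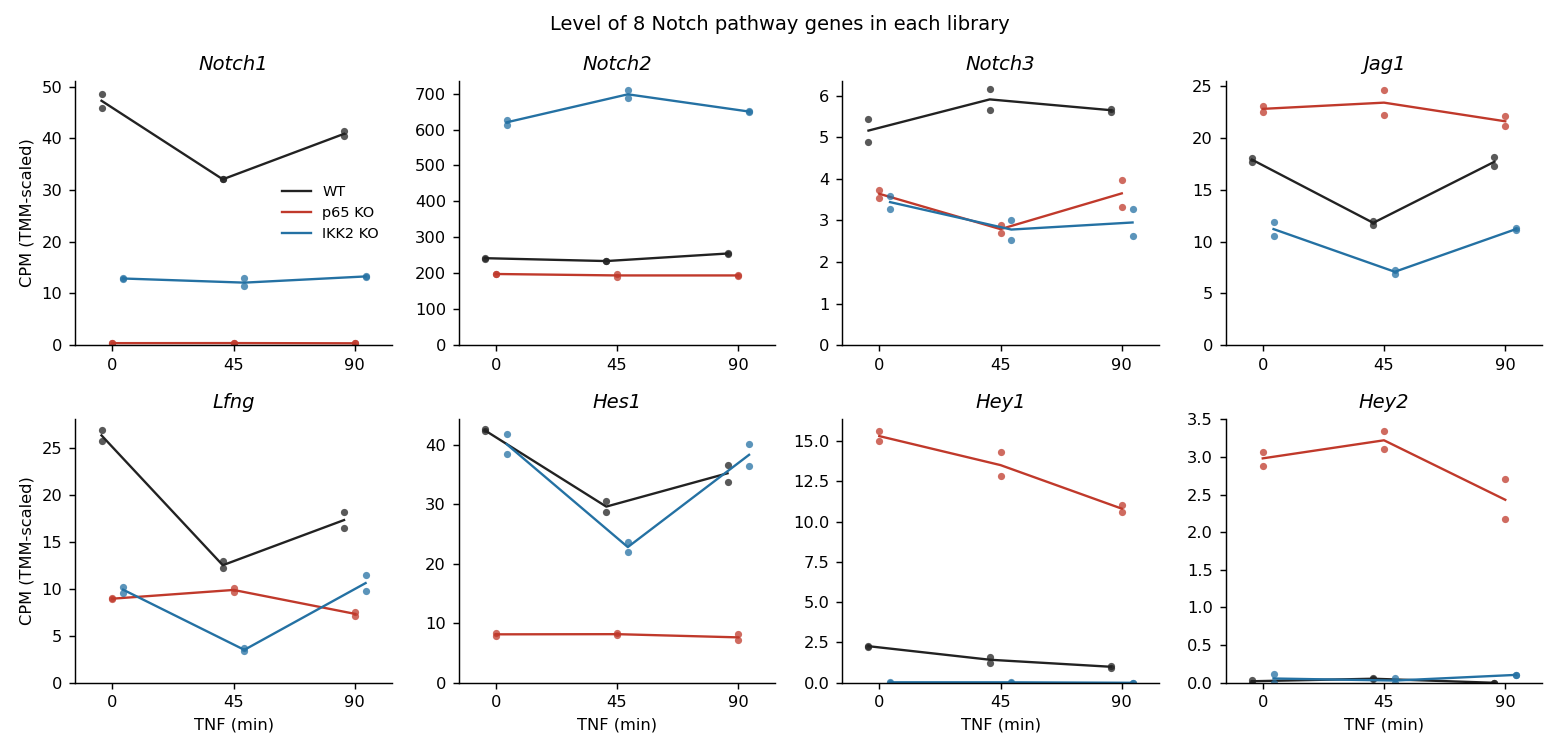
Level in CPM (y axis, linear, from 0) against minutes of TNF (x axis) for the 8 members that passed the filter. Points are single libraries, lines join the means of 2 libraries, and colours give the line. Lfng, Hes1 and Jag1 dip at 45 min in WT (black) and IKK2 KO (blue) and not in p65 KO (red), whose Hes1 stays between 7.12 and 8.43 CPM.

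At 90 min in WT, 4 of 8 members were lower than untreated (Notch1, Lfng, Hes1 and Hey1, against 9.32% of all genes), and 2 of 8 without WT 90 min library a. From 45 to 90 min in WT, 5 of 8 rose (Notch1, Notch2, Jag1, Lfng and Hes1), where 14.3% of all genes were called, 8.08% as higher. Of these, Notch2 had not been called lower at 45 min. In IKK2 KO, 0 of 8 differed from untreated at 90 min (4.48% of all genes), after Jag1, Lfng and Hes1 had risen and Notch2 had fallen between 45 and 90 min (4 of 8, against 15.7%). In p65 KO, Hey1 alone was lower at 90 min (1 of 8, against 6.48%), and between 45 and 90 min Lfng and Hey1 fell (2 of 8, against 2.73%), a count of 0 in DESeq2's Wald test and of 0 or 1 without any 1 of the 4 libraries. The median log2 change of the 8 tested members was −0.54 in WT and −0.49 in IKK2 KO at 45 min and 0.02 in p65 KO, beside a median over all genes of 0.01, 0.00 and 0.00. Comparisons at 45 and 90 min share their untreated libraries.

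The difference between lines was tested directly. At 45 min the p65 KO response differed from the WT response in Jag1, Lfng and Hes1 (3 of 8, against 7.08% of all genes), and at 90 min in 0 of 8 (5.39%). The IKK2 KO response differed from that of WT in Notch1 and Notch2 at 45 min (2 of 8, against 4.86%) and in Lfng at 90 min (1 of 8, against 2.35%). The 2 knock-out responses were not tested against each other.

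**Figure D2:**
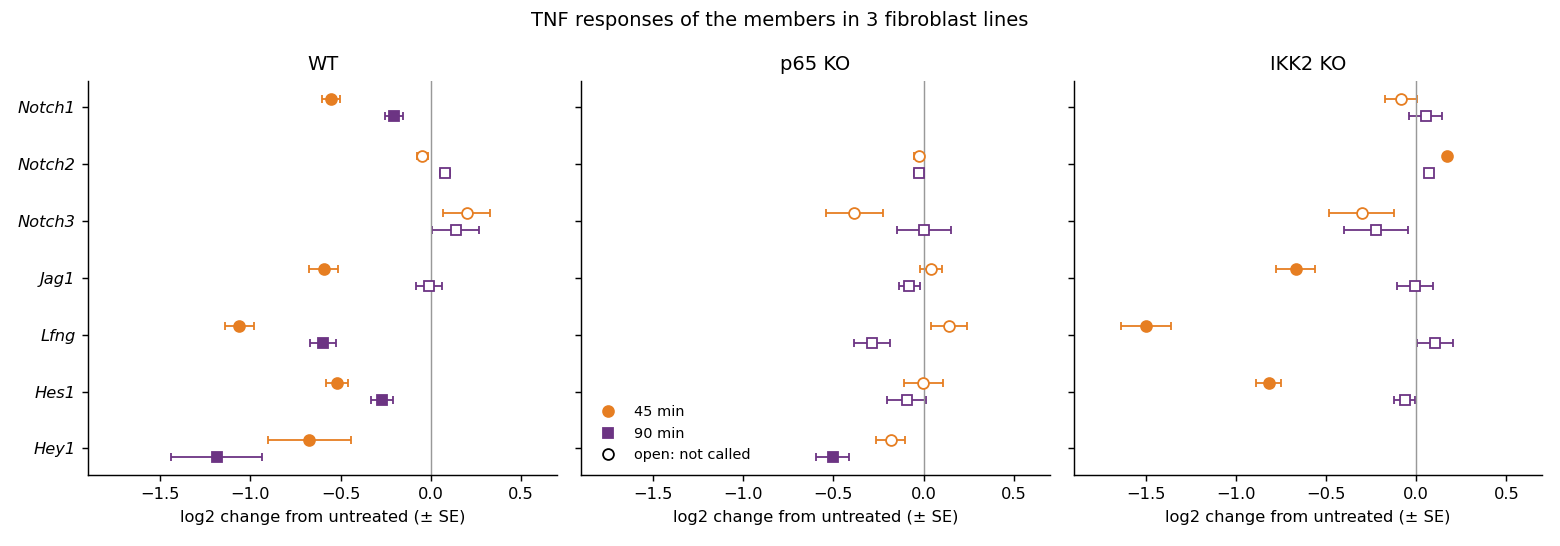
Log2 change from untreated (x axis, bars are standard errors from edgeR) for 7 members (y axis) in each line. Circles are 45 min and squares 90 min, and filled symbols passed the adjusted threshold. Notch1 in p65 KO and Hey1 in IKK2 KO are not drawn because they had 7 to 11 and 0 to 1 counts per library. In p65 KO the 45 min circles are all open, and Lfng in IKK2 KO lies lowest at −1.50.

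Among the receptors, Notch1 (ENSMUSG00000026923, GRCm38 chromosome 2, 26457903 to 26516663), the receptor best known from blood and vessel development, differed most between lines. Untreated WT libraries read 45.9 and 48.7 CPM, IKK2 KO 12.9 and 12.8 CPM, and p65 KO 0.457 and 0.32 CPM. The lines did not overlap at any time, and in p65 KO the gene was at 7 to 11 counts per library. The log2 difference of untreated p65 KO from WT was −6.89 ± 0.13 (adjusted p = 7.6e-38), and it ran from −7.18 to −6.67 over 9 alternatives. With 18 counts in untreated p65 KO, the 0.13 understates the error, since p65 KO comparisons between times gave 0.43 for this gene. Notch1 passed the filter on low counts through WT and IKK2 KO, so the difference of p65 KO from these lines is a description. For IKK2 KO the difference from WT was −1.88 ± 0.07 (adjusted p = 5.7e-27). After 45 min of TNF, WT fell to 32.2 and 32.1 CPM (−0.55 ± 0.05, adjusted p = 3.9e-11). At 90 min WT read 40.5 and 41.4 CPM, up from 45 min (0.35 ± 0.06, adjusted p = 6.2e-06). The remaining fall from untreated (−0.21 ± 0.05, adjusted p = 0.0042) was lost in DESeq2's Wald test and without WT 90 min library a or untreated library b (adjusted p from 0.0028 to 0.17 over 9 alternatives). IKK2 KO gave 11.4 and 12.9 CPM at 45 min, overlapping its untreated libraries (−0.08 ± 0.09, adjusted p = 0.73), and 13.2 and 13.4 CPM at 90 min (0.05 ± 0.09, adjusted p = 0.89). Its response at 45 min differed from that of WT by 0.47 ± 0.11 (adjusted p = 0.0033), a call lost without the IKK2 KO 45 min library b (0.079, and 0.0016 to 0.079 over 13 alternatives). Exons of the opposite-strand gene 0610009E02Rik overlap Notch1, and it had 112 counts over the 18 libraries against 6313 for Notch1. The strand setting of the counting is not given in the sources used here.

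Notch2 (ENSMUSG00000027878, chromosome 3, 98013527 to 98150361) was the most abundant receptor in each of the lines. Untreated libraries read 243 and 240 CPM in WT, 197 and 198 in p65 KO and 613 and 627 in IKK2 KO. All 6 IKK2 KO libraries lay above all 12 others, with untreated IKK2 KO 1.36 ± 0.03 above WT (adjusted p = 7.8e-37), while p65 KO was 0.29 lower (−0.29 ± 0.03, adjusted p = 1.7e-12). TNF moved it little: IKK2 KO rose at 45 min to 709 and 687 CPM (0.17 ± 0.02, adjusted p = 1.5e-06) and fell back to 648 and 652 CPM at 90 min (−0.10 ± 0.02, adjusted p = 0.0019). WT read 235 and 233 CPM at 45 min (−0.05 ± 0.03, adjusted p = 0.36) and 254 and 257 at 90 min, a rise between the times (0.13 ± 0.03, adjusted p = 0.0011). The 45 min responses of IKK2 KO and WT differed by 0.22 ± 0.04 (adjusted p = 5.6e-05). All p65 KO libraries lay between 190 and 198 CPM. Notch2 counts were fractional in 11 of 18 libraries. Gm42820, which overlaps its exons on the same strand, had 889 counts against 127367 for Notch2.

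Notch3 (ENSMUSG00000038146, chromosome 17, 32120820 to 32166852), a receptor typical of mural cells around vessels, was scarce. Untreated WT read 4.88 and 5.43 CPM, above p65 KO (3.53 and 3.74 CPM, −0.50 ± 0.14, adjusted p = 0.0013) and IKK2 KO (3.28 and 3.59 CPM, −0.57 ± 0.15, adjusted p = 0.00091). The knock-outs overlapped each other. Over all times WT ran from 4.88 to 6.17 CPM and the knock-outs from 2.54 to 3.97 CPM. TNF changed Notch3 past the threshold in none of the 9 comparisons between times (edgeR adjusted p from 0.23 to 1). Cspg4 and the other mural markers are given above, and their part in this difference was not tested.

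Of the ligands, Jag1 (ENSMUSG00000027276, chromosome 2, 137081456 to 137116644), which activates Notch in neighbouring cells, was highest in p65 KO. Untreated libraries read 17.7 and 18.1 CPM in WT, 23.1 and 22.5 in p65 KO and 10.5 and 11.9 in IKK2 KO, with no overlap between lines. The log2 difference of p65 KO from WT was 0.35 ± 0.07 (adjusted p = 1.1e-05). For IKK2 KO it was −0.67 ± 0.09 (adjusted p = 4.3e-09). TNF for 45 min brought WT to 11.6 and 12 CPM (−0.59 ± 0.08, adjusted p = 3.3e-07). IKK2 KO went to 6.89 and 7.27 CPM (−0.67 ± 0.11, adjusted p = 1.9e-05). Both lines were back at their untreated range at 90 min, with 17.3 and 18.2 CPM in WT (−0.01 ± 0.07, adjusted p = 0.98) and 11.1 and 11.3 CPM in IKK2 KO (0.00 ± 0.10, adjusted p = 1). In p65 KO the 45 min libraries read 24.6 and 22.2 CPM (0.04 ± 0.06, adjusted p = 0.87), so the response differed from that of WT by 0.64 ± 0.10 (adjusted p = 2.1e-05). At 90 min p65 KO read 21.1 and 22.1 CPM, below but close to its untreated libraries (−0.08 ± 0.06, adjusted p = 0.57). The IKK2 KO and WT responses at 45 min differed by −0.07 ± 0.14 (adjusted p = 0.92).

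Jag2 (ENSMUSG00000002799, chromosome 12, 112907819 to 112929776), the other Jagged ligand, did not pass the filter. It had 0 to 8 counts per library and 52 over all 18, at most 0.365 CPM. IKK2 KO had 4 and 5 counts untreated, 3 and 6 at 45 min and 0 and 1 at 90 min. The 90 min libraries lay below the others, and untreated was 10.1-fold higher than 90 min, with a 95% counting interval of 1.41 to 445. That interval covers counting error only. Counts of libraries in the same group could differ as widely, with 0 and 8 in untreated p65 KO.

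Lfng (ENSMUSG00000029570, chromosome 5, 140607320 to 140615545), whose promoter letters are shown above, had the largest TNF changes of the members with more than 60 counts in every library. WT read 25.7 and 26.9 CPM untreated, 12.2 and 12.9 CPM at 45 min and 16.5 and 18.2 CPM at 90 min. The 3 times did not overlap. The fall at 45 min was −1.06 ± 0.08 (adjusted p = 6.5e-15), and 90 min was still −0.60 ± 0.07 from untreated (adjusted p = 1.1e-08) after a partial rise (0.46 ± 0.09, adjusted p = 6.6e-05). IKK2 KO began lower, at 10.2 and 9.58 CPM, and went to 3.34 and 3.66 CPM at 45 min (−1.50 ± 0.14, adjusted p = 1.7e-11). At 90 min it read 9.71 and 11.5 CPM, overlapping the untreated libraries, a rise of 1.6 ± 0.13 from 45 min (adjusted p = 4.4e-13). The change from untreated differed between the lines at 90 min (IKK2 KO minus WT 0.70 ± 0.13, adjusted p = 0.00026), while at 45 min the difference was −0.44 ± 0.16 (adjusted p = 0.14). The rises from 45 to 90 min were not tested against each other.

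In p65 KO the Lfng course had another shape. Libraries read 9.01 and 8.86 CPM untreated, 9.63 and 10.1 CPM at 45 min (0.14 ± 0.10, adjusted p = 0.60) and 7.53 and 7.12 CPM at 90 min (−0.29 ± 0.10, adjusted p = 0.082). The 45 min response differed from that of WT by 1.20 ± 0.12 (adjusted p = 6.7e-10). The fall between 45 and 90 min (−0.43 ± 0.10, adjusted p = 0.0084) was lost in DESeq2's Wald test and without p65 KO 45 min library a, 45 min library b or 90 min library b (adjusted p from 0.0056 to 0.12 over 9 alternatives). Untreated Lfng was lower than WT in both knock-outs (p65 KO −1.55 ± 0.08, adjusted p = 1.1e-21). The IKK2 KO difference was −1.41 ± 0.08 (adjusted p = 4.1e-19). The knock-outs differed from each other by 0.14 ± 0.10 (adjusted p = 0.21).

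Among the targets, Hes1 (ENSMUSG00000022528, chromosome 16, 30064384 to 30067796), a repressor that also shuts off its own gene, stood at 42.3 and 42.6 CPM in untreated WT and at 41.8 and 38.4 CPM in untreated IKK2 KO (−0.08 ± 0.06, adjusted p = 0.19). In p65 KO it was at 8.43 and 7.85 CPM, −2.38 ± 0.08 from WT (adjusted p = 5.3e-29). Notch1, Hes1 and Lfng were thus all lower in untreated p65 KO than in WT, while Hey1 and Hey2 were higher. After 45 min of TNF, Hes1 went to 30.5 and 28.7 CPM in WT (−0.52 ± 0.06, adjusted p = 4.3e-09). IKK2 KO went to 21.9 and 23.6 CPM (−0.82 ± 0.07, adjusted p = 1.2e-12). The difference between these falls was −0.30 ± 0.09 (adjusted p = 0.051), and it passed the threshold in 3 of 13 alternatives (adjusted p from 0.029 to 0.33). In p65 KO the 45 min libraries read 7.97 and 8.37 CPM, overlapping untreated (0.00 ± 0.11, adjusted p = 1), a difference from the WT response of 0.52 ± 0.13 (adjusted p = 0.0041).

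At 90 min Hes1 read 36.4 and 40.2 CPM in IKK2 KO, overlapping untreated (−0.06 ± 0.06, adjusted p = 0.71) and 0.75 ± 0.07 above 45 min (adjusted p = 5.4e-12). WT was at 33.8 and 36.6 CPM, −0.27 ± 0.06 from untreated (adjusted p = 0.00074), a call lost without WT 90 min library a (0.059, and 6.4e-05 to 0.059 over 9 alternatives). The WT rise from 45 to 90 min (0.25 ± 0.06, adjusted p = 0.0038) was lost in DESeq2's Wald test and without WT 45 min library b or 90 min library b (adjusted p from 0.00099 to 0.13). The p65 KO libraries at 90 min read 7.12 and 8.14 CPM, overlapping untreated. Hes1 counts were fractional in 9 of 18 libraries.

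Hey1 (ENSMUSG00000040289, chromosome 3, 8663359 to 8667256), a repressor with vascular and cardiac roles, was highest in p65 KO and nearly absent from the IKK2 KO counts. Untreated libraries read 2.3 and 2.23 CPM in WT and 15 and 15.6 CPM in p65 KO, 2.75 ± 0.12 higher (adjusted p = 4.7e-23). IKK2 KO had 1 count in all over its 2 untreated libraries, against 100 in WT, so WT was 76.4-fold higher with a 95% counting interval of 13.4 to 3050. The 2 IKK2 KO libraries at 90 min had 0 counts, which allows up to 0.079 CPM (3 counts over the group). These intervals and limits cover counting error only.

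Unlike Hes1, Lfng and Jag1, Hey1 did not rise again by 90 min. WT went from 2.3 and 2.23 CPM to 1.63 and 1.24 at 45 min and 1.05 and 0.94 at 90 min. The difference between 45 and 90 min was not called (−0.51 ± 0.29, adjusted p = 0.29). The 90 min fall was −1.19 ± 0.25 (adjusted p = 0.00058), and the 45 min fall (−0.67 ± 0.23, adjusted p = 0.046) was lost in 7 of 9 alternatives, DESeq2's Wald test and each of the 4 libraries left out among them (adjusted p from 0.045 to 0.41). p65 KO went from 15 and 15.6 CPM to 12.8 and 14.3 at 45 min (−0.18 ± 0.08, adjusted p = 0.34) and 11 and 10.6 at 90 min (−0.50 ± 0.09, adjusted p = 6e-05). At 90 min the p65 KO response differed from that of WT by 0.68 ± 0.27 (adjusted p = 0.15). The further fall of p65 KO between 45 and 90 min (−0.32 ± 0.09, adjusted p = 0.032) was lost in 6 of 9 alternatives, each of the 4 libraries left out among them (adjusted p from 0.031 to 0.64).

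Hey2 (ENSMUSG00000019789, chromosome 10, 30832359 to 30842801), a close relative of Hey1, was detected almost only in p65 KO. It passed the filter on low counts through that line alone, so its difference between lines is a description. p65 KO libraries held 53 to 77 counts (2.17 to 3.34 CPM), WT libraries 0 or 1 and IKK2 KO libraries 0 to 2. Untreated p65 KO had 137 counts over its 2 libraries and WT 1, a ratio of 131 with a 95% counting interval of 23.2 to 5230. TNF gave no called change in p65 KO, with 3.07 and 2.88 CPM untreated, 3.1 and 3.34 at 45 min and 2.17 and 2.7 at 90 min (−0.29 ± 0.18 at 90 min, adjusted p = 0.40). Heyl (ENSMUSG00000032744, chromosome 4, 123233556 to 123249875), the third of the Hey genes, had 1 count in all 18 libraries.

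Between untreated lines most genes differed, and the members did not stand out by their count. Hey1 and Hey2 passed the filter through the lines in which they are high, so they are left out of these counts. Of the other 6 tested members, 6 were called between p65 KO and WT (1 higher and 5 lower), against 80.8% of all genes. IKK2 KO and WT differed in 5 of 6 (1 higher and 4 lower), against 74.3%. IKK2 KO and p65 KO differed in 4 of 6 (3 higher and 1 lower in IKK2 KO), against 72.4%. Notch1, at 7 and 11 counts in the untreated p65 KO libraries, passed the filter through WT and IKK2 KO and is still in these counts. The counts that involve p65 KO are therefore a description. Fibroblast and neural marker sums were lower in p65 KO, as given above, largely through Fn1 (5030 CPM in WT, 844 in p65 KO) and Nes (423 and 11.7). The fibroblast marker Pdgfra (18.3 and 59 CPM) and the neural marker Map2 (17.7 and 36.2) went the other way. The part of these markers in the differences was not tested. In bulk RNA, fewer cells with a transcript and less of it per cell cannot be told apart.

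**Figure D3:**
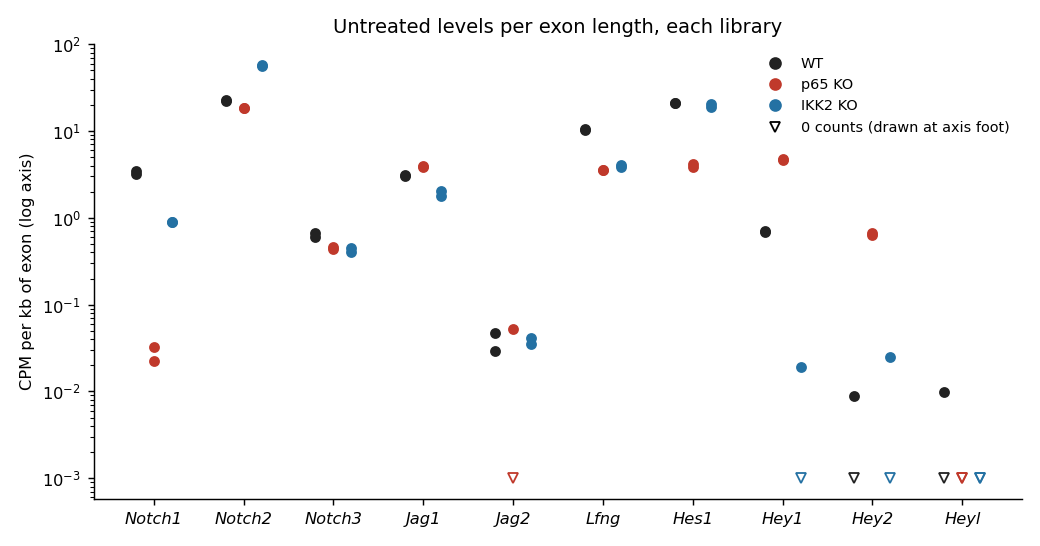
Untreated level per kilobase of exon (y axis, log scale, CPM divided by the length of the gene's merged exons) for the 10 members (x axis). Each point is 1 library, colours give the line, and open triangles at the foot stand for 0 counts. Notch2 is the highest member in each line, and Notch1, Hey1 and Hey2 spread over the widest ranges between lines.

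Levels of different members were compared per kilobase of merged exon. In untreated WT, Notch2 (22.4 CPM per kb) and Hes1 (20.8) led, followed by Lfng (10.5), Notch1 (3.32) and Jag1 (3.07), with Hey1 at 0.694 and Notch3 at 0.637. In untreated p65 KO, Notch2 (18.3) was followed at a distance by Hey1 (4.69), Hes1 (4), Jag1 (3.91) and Lfng (3.57). In untreated IKK2 KO, Notch2 reached 57.5 and Hes1 19.7, followed by Lfng (3.95), Jag1 (1.92) and Notch1 (0.903). Hey1 thus ranked 2 of 10 in p65 KO and 9 of 10 in IKK2 KO. Without the scaling to length, Notch1, with 14.2 kb of merged exons, would rank 2 in WT in place of 4.

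The rest of the pathway was read from a list of 64 other genes, of which 54 passed the filter. In WT, 6 of the 54 rose and 6 fell at 45 min, beside 12.2% of all genes called, and 7 rose and 1 fell at 90 min, beside 9.32%. In p65 KO, 1 rose and 0 fell at 45 min (1.66% of all genes) and 3 rose and 2 fell at 90 min (6.48%). IKK2 KO had 3 rises and 3 falls at 45 min (8.76%) and 4 rises and 1 fall at 90 min (4.48%). The medians of the 54 lay between −0.02 and 0.03 in these 6 comparisons. DESeq2's Wald test called 0 of them in p65 KO at 45 min.

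**Figure D4:**
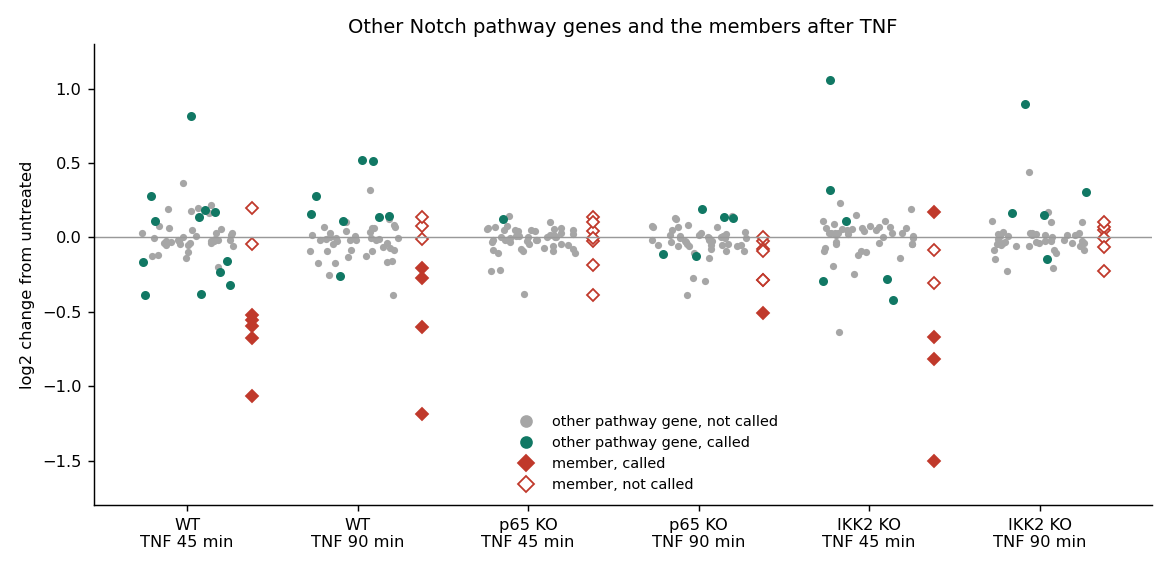
Log2 change from untreated (y axis) of other Notch pathway genes (circles, green where called) and of the members (diamonds, filled where called) in each line and time (x axis). Genes with a standard error of 0.3 or more are left out, which leaves 48 to 50 circles and 6 or 7 diamonds per column. Filled diamonds reach −1.50 in IKK2 KO at 45 min, while among the circles Myc lies highest, at 1.06 in the same column.

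By role, 0 of 10 tested cleavage enzymes and 0 of 4 glycosylating enzymes were called at 45 min in any line by edgeR's test. With 12.2% of all genes called in WT, 1.66% in p65 KO and 8.76% in IKK2 KO, lists this short do not stand apart by such counts. At 90 min Furin, the convertase that cuts the receptor in the secretory path, rose slightly in WT (0.15 ± 0.03, adjusted p = 0.00021). The other call there, for the ADAM protease gene Adam17 (0.14 ± 0.05, adjusted p = 0.046), was lost in 8 of 9 alternatives (adjusted p from 0.045 to 0.29). In the nuclear group of 17, Rbpj, the DNA-binding partner of the cleaved receptor, rose in WT from 372 and 377 CPM to 455 and 452 at 45 min (0.28 ± 0.03, adjusted p = 6.8e-12) and 456 and 454 at 90 min. It read 226 and 233 CPM in untreated IKK2 KO and 236 and 232 at 45 min, and its 45 min response there was lower than in WT (−0.25 ± 0.04, adjusted p = 7e-06). In p65 KO it read 212 and 216 CPM untreated and 215 and 214 at 45 min, also a lower response than in WT (−0.27 ± 0.04, adjusted p = 5.7e-07). At 90 min Rbpj had risen in both knock-outs as well. IKK2 KO reached 254 and 255 CPM (0.15 ± 0.03, adjusted p = 3e-04). p65 KO reached 240 and 231 CPM (0.14 ± 0.03, adjusted p = 0.00056), a call lost without its 90 min library a (0.058, and 8.3e-05 to 0.058 over 9 alternatives). The Groucho-type co-repressor genes Tle3 (−0.38 ± 0.04, adjusted p = 4.1e-10) and Tle4 (−0.38 ± 0.08, adjusted p = 0.00045) fell in WT at 45 min.

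Dtx4, encoding a Deltex ubiquitin ligase, rose in WT from 9.56 and 10.7 CPM to 17.9 and 17.6 at 45 min (0.82 ± 0.09, adjusted p = 1.1e-09). In p65 KO it read 31.7 and 30.4 CPM untreated and 31.5 and 30.7 at 45 min, a difference in response of −0.82 ± 0.11 (adjusted p = 2.3e-07). In IKK2 KO its libraries reached 21 and 22.8 CPM at 90 min from 13.2 and 10.4 (0.90 ± 0.09, adjusted p = 2.1e-10). Its rise there at 45 min (0.32, adjusted p = 0.029) was lost in 5 of 9 alternatives. The difference of that response from WT (−0.50, adjusted p = 0.016) was lost in 5 of 13. Myc, a Notch target in T cells and a gene under many other controls, rose in IKK2 KO from 467 and 461 CPM to 937 and 997 at 45 min (1.06 ± 0.03, adjusted p = 9.7e-31), while in WT it moved from 101 and 105 to 116 and 117 CPM (0.18 ± 0.04, adjusted p = 0.00022). In p65 KO Myc was higher at 90 min (0.19, adjusted p = 4.9e-05), and its call at 45 min (0.13, adjusted p = 0.028) was lost in 5 of 9 alternatives. Bhlhe40, a repressor related to the Hes family, fell in IKK2 KO at 45 min (−0.42 ± 0.05, adjusted p = 7.3e-08) and rose above untreated at 90 min (0.31 ± 0.05, adjusted p = 9.5e-06). In WT it rose at 90 min (0.52 ± 0.04, adjusted p = 6.6e-15), and the p65 KO response at 90 min was below that of WT (−0.49, adjusted p = 2e-06).

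Ligands and receptors outside the 10 members also marked the lines. Delta ligands were hardly detected, with 28 counts of Dll1, 16 of Dll3 and 24 of Dll4 over 18 libraries. Dlk1, an imprinted non-canonical ligand, read 31.4 and 30 CPM in untreated p65 KO, 0.493 and 0.101 in WT, and had 0 counts in untreated IKK2 KO. The WT difference from IKK2 KO for Dlk1 rests on 12 counts in WT library a and 2 in library b, and it was not called without library a (adjusted p = 0.064, and 4.1e-05 to 0.064 over 8 alternatives). Its relative Dlk2 read 54.8 and 59.3 CPM in p65 KO, 14.9 and 13.7 in WT and 2.54 and 2.79 in IKK2 KO, so both followed the order of Hey1 and Jag1 across the untreated lines. Tle2 (−2.48 ± 0.18, adjusted p = 1.7e-16) and Tle4 (−2.22 ± 0.10, adjusted p = 3.2e-23) were lower in p65 KO than in WT. In all, 20 of the 54 were higher and 27 lower in untreated p65 KO than in WT, and 18 higher and 25 lower in IKK2 KO, where 80.8% and 74.3% of all genes were called. Dlk1 passed the filter through p65 KO and is still in these counts, as may be other genes that are high in a single line. The counts are therefore a description.

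Genes with a like pattern were ranked by Pearson's r of the group means of log2 CPM over the 9 groups, among 10609 genes. The values are descriptions over groups that share 3 lines, so differences between lines weigh most. For Notch1 the closest were Cep170b (0.999), Cplx2 (0.998) and Ppp3cc (0.998), and for Hes1 Bdnf (0.995), Strn3 (0.994) and Usp10 (0.993). For Jag1 they were Ttl (0.99), Ccdc84 (0.984) and Cald1 (0.982), and for Hey1 Zfp956 (0.996), Gpr180 (0.996) and Hnrnpr (0.995).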

How the data were processed

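RNA of 18 libraries in 9 groups was analysed. Per the submitters' processing notes, the authors worked on GRCm38 with HISAT2 and featureCounts (Subread 1.6.2), beside Trimmomatic, edgeR 3.26.4 and FastQC 0.11.8. No source used here gives the annotation, strand setting or treatment of multi-mapped reads. The deposited table holds expected counts per gene, not scaled to depth, of which 31.8% of the non-zero values are fractional. They were rounded to whole counts. Positions and exon lengths came from GENCODE M21, in which each of the 55536 IDs had a match. Columns name the group but not the replicate number.

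Genes were kept with filterByExpr (16322 genes), scaled by TMM and tested in R 4.3.3 (edgeR 4.0.16, robust quasi-likelihood F-test). The model had a coefficient for each of the 9 groups and gave 16 contrasts, adjusted over all genes within each contrast (Benjamini-Hochberg, 0.05). Standard errors are the log2 change divided by the square root of F. They can be too small where a large change rests on low counts, as for Notch1 and Hey1 between untreated p65 KO and WT. The residual degrees of freedom were 9, beside a prior of 32.2 (median) drawn from all genes. The common dispersion stood for a coefficient of variation of 1.93% between libraries of a group. DESeq2 1.42.0 was an alternative, beside RLE factors, no filter, fits of only the groups compared, each library left out and a threshold of 0.01. Replicates were compared for duplicates (chi-square per degree of freedom 1.11 to 3.95). The pipeline was tested on simulated data. The members and lists were chosen with earlier results of these data known. Every member was described. From the other pathway genes, those named were mostly of the 4 largest called changes per comparison, with Rbpj, Furin, Adam17, Dll1, Dll3, Dll4, untreated Dlk1 and Dlk2 and further values of named genes added after the values were seen. Figures were drawn with matplotlib 3.10.9.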

Additional observations from a re-analysis of the deposited data

Results flagged for a closer look

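Some TNF responses of members differed between lines by the test of the difference itself. Against WT at 45 min, the p65 KO response was higher in Lfng (1.20, log2), Jag1 (0.64) and Hes1 (0.52), because these genes fell in WT and were near their untreated level in p65 KO. Against WT at 45 min, the IKK2 KO response was higher in Notch1 (0.47) and Notch2 (0.22). At 90 min the IKK2 KO response of Lfng was 0.70 above that of WT.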

How the results depend on the processing

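No paired analysis was possible because the columns of the table carry no replicate numbers. Over 1255 values of members under an alternative, no called change reversed its sign, 25 calls were lost and 3 were gained, and 44 changes that were not called had another sign. The count of members called in p65 KO between 45 and 90 min was the least stable, at 2 in the reported fit, 0 in DESeq2's Wald test, 1 at a threshold of 0.01 and 0 to 1 with a library left out. With a library left out, WT at 90 min gave 2 to 4 against 4, WT at 45 min 4 against 5, and WT between the times 4 to 5 against 5. Counts over all genes depended more on the method. DESeq2's Wald test called 1119 genes in place of 1988 in WT at 45 min, 851 in place of 1521 at 90 min and 1283 in place of 2334 between the times. In p65 KO the same counts were 156 for 271, 430 for 1058 and 173 for 445, and in IKK2 KO 802 for 1430, 407 for 732 and 1536 for 2566. For differences of responses it called 667 for 1156 and 495 for 880 in p65 KO at 45 and 90 min, and 475 for 794 and 208 for 384 in IKK2 KO. A threshold of 0.01 lowered 12 counts by 1.5 to 2.05 times, and fitting only the 4 libraries compared raised the p65 KO 45 min count to 533. With a library left out, p65 KO gave 102 to 186 genes at 45 min, 449 to 564 at 90 min and 147 to 217 between the times, and IKK2 KO 909 to 1197 at 45 min and 389 to 514 at 90 min. Among other pathway genes, whose alternatives were chosen after seeing the data, the counts ranged from 0 to 1 (p65 KO at 45 min, 1 reported), 1 to 5 (p65 KO at 90 min, 5 reported), 3 to 6 (IKK2 KO at 45 min, 6 reported) and 8 to 14 (WT between the times, 13 reported). Depth limits Jag2, Heyl, Hey1 in IKK2 KO, Hey2 outside p65 KO and Notch1 in p65 KO. The causes of these changes were not tested.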
